A study of Mus musculus with 6 samples.

Results

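The genes described here make cholesterol, sense it, take it up, store it or pass it on. They were chosen as a list of 31 symbols, of which 30 have a row under that exact symbol among the 13203 genes measured. RNA was sequenced from whole mouse kidneys at E17.5, late in embryonic life, after removal of ribosomal RNA, with 3 samples per genotype. Both genotypes carried floxed alleles of Brg1 (Smarca4), whose product is an ATPase that drives SWI/SNF complexes to move nucleosomes. The mutant kidneys (Six2Cre Brg1flx/flx) also carried Six2Cre, a recombinase under control of Six2, a gene of the nephron progenitors, and the labels of the control kidneys (Brg1 flx/flx) name no Cre. Recombination was therefore directed to progenitors and their descendants, the nephron epithelia, and not to stroma, ureteric tree, vessels or blood, and Cre and deletion cannot be told apart.

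Cholesterol is built from acetyl-CoA, first to mevalonate and isoprenoid units, then to squalene, which is closed to lanosterol and trimmed to cholesterol. SREBP transcription factors, the products of Srebf1 and Srebf2, are held in the endoplasmic reticulum by Scap and the Insig proteins while sterols are plentiful, and switch on the enzymes of the pathway when sterols run low. LXR receptors respond to oxysterols and switch on genes of cholesterol export such as Abca1 and Abcg1. In the kidney, proximal tubule cells take up large amounts of filtered protein and lipid carriers, and cells that divide or build membrane need sterol.

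Values are scaled coverage, the number of sequenced bases on a gene after scaling by the authors to a common library total of about 976 Mb, in kb, as mean ± SD of 3 libraries. Library names con1, con2 and con3 stand for control kidneys and mut1, mut2 and mut3 for mutant kidneys. Fold changes are log2, mutant minus control, with the standard error (SE) of limma, and "rose" and "fell" mean an adjusted p under 0.05 over all 13203 genes. The smallest p of an exact two-sided permutation test of 3 against 3 libraries is 0.1, and 26 of the 30 genes reached it. Any gene whose groups do not overlap reaches it. Of all genes 29.8% had all mutant values below all control values, and 26.5% had them above. Before scaling, the libraries held 726 to 1126 Mb in control and 934 to 1209 Mb in mutant; the number of reads is unknown. Smarca4 fell from 408 ± 33.1 to 306 ± 33.5 kb (-0.42, SE 0.10, adjusted p = 0.00481; not past the threshold with the authors' own p-values after adjustment, 0.0581). Libraries con3 and mut1 carried more coverage of Y-linked genes than of Xist, and the others the reverse, so each group held 1 such sample.

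The enzymes of cholesterol synthesis were lower in the mutant kidneys, and several genes of cholesterol uptake, export and storage were higher. Of 18 measured enzymes 15 fell and 0 rose (11 fell with the authors' own p-values after adjustment), with a median log2 fold change of -0.82 against -0.03 over all genes. Those that fell include Tm7sf2, which has a row only through its control mean. Hmgcs1, Idi1, Fdps, Sqle and Cyp51 were each below 0.5 of their control level. Of the 7 genes of uptake, transport, export and storage 6 rose, led by Abca1 at 2.53 times control and Soat1 at 1.94 times, and Stard4 fell to 0.557 of control. The number that rose was 3 (Abca1, Soat1 and Scarb1) with the authors' p-values, and 4 without con1, con2 or mut3. Over the 30 genes 18 fell (60.0%) and 6 rose (20.0%). Over all genes 46.1% passed the threshold, 24.6% lower and 21.5% higher, so the share of members that rose was near that of all genes while the share that fell was above it. All 3 mutant values lay below all 3 control values in 21 of the 30 genes (70.0%, against 29.8% of all genes) and above them in 5 (16.7%, against 26.5%).

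**Figure D1:**
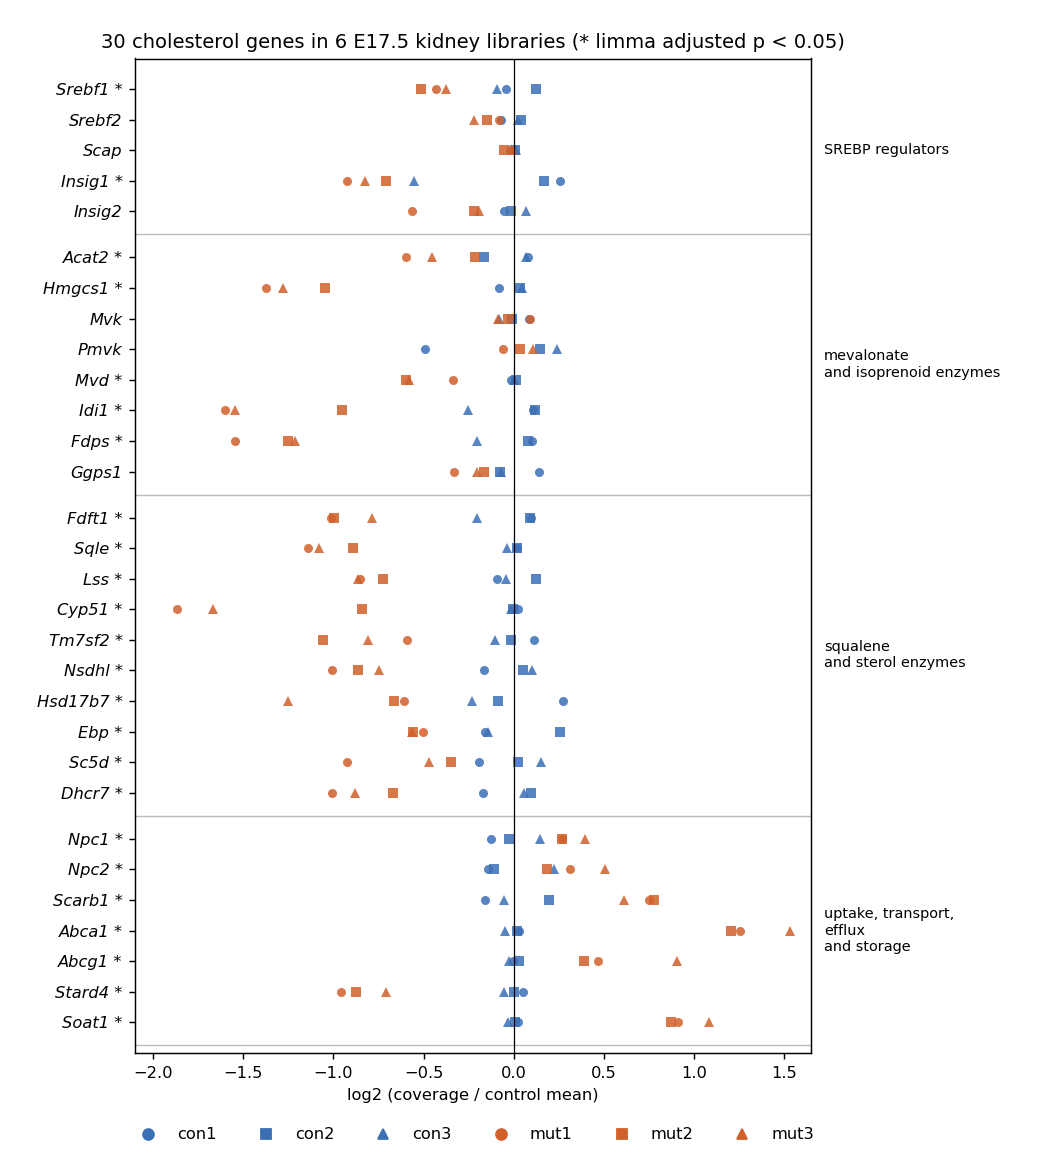
Each point is the coverage of a gene in a library over its control mean, on a log2 axis, for the 30 genes in 4 roles (control blue, mutant orange, marker shape by library). Mutant points lie left of the control points for most enzymes and right of them for Npc1, Scarb1, Abca1, Abcg1 and Soat1.

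Promoter sequences are shown for the genes with the largest changes that the RefSeq table of mouse promoters holds (GRCm38.p6, 250 bases before to 50 bases after the start site, which is base 251). Hmgcs1, Cyp51 and Idi1 stand for the enzymes that fell and Abca1 for the genes that rose. The sequences are written 5′ to 3′ on the strand of the gene. Capitals mark the sterol regulatory element core (TCACNCCAC, bound by SREBPs), which only Hmgcs1 holds. They also mark NF-Y boxes (CCAAT, or ATTGG where the box is on the other strand) in the first 3. GC boxes (GGGCGG, bound by Sp1) are marked in Abca1 only, though Hmgcs1, Cyp51 and Idi1 hold them too.
Hmgcs1, chr13:119690101-119690400, plus strand: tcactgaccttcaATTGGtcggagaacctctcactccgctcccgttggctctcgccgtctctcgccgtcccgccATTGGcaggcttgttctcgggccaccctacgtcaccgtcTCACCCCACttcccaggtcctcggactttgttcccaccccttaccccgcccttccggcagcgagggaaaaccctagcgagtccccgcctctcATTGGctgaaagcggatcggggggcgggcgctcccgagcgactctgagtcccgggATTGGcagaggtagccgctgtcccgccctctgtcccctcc
Cyp51, chr5:4104648-4104947, minus strand: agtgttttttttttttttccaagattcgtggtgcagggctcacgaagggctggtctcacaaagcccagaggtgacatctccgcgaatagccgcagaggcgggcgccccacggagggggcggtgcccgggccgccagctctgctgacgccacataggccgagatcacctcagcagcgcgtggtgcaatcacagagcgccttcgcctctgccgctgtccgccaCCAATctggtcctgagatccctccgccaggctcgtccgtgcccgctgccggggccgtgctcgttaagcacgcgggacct
Idi1, chr13:8885356-8885655, plus strand: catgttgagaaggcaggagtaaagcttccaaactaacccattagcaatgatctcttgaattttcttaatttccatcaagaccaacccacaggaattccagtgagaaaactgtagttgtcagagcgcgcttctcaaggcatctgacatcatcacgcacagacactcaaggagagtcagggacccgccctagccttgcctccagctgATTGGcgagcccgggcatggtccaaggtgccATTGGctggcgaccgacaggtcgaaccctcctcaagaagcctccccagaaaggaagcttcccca
Abca1, chr4:53159846-53160145, minus strand: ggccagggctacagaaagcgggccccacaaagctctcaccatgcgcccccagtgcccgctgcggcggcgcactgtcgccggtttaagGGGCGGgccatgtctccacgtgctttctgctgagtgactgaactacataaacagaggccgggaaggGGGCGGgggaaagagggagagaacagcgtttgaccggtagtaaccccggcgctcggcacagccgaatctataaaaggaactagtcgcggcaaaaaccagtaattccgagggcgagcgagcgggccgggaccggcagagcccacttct

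The Hmgcs1 window holds 1 sterol element core, TCACCCCAC, at bases 114 to 122, and 4 NF-Y boxes. The table matched 24 of the 31 listed genes, and those it did not match were Fdps, Fdft1, Sqle, Npc1, Scarb1, Abcg1 and Stard4. Searched on both strands, the sterol element core was found in 1 of the 24, Hmgcs1, and in 1.41% of 9638 measured genes with a window (1.24% of all 32851 windows). An NF-Y box was found in 21 of the 24, against 43.1% of measured genes and 37.4% of all windows. A GC box was found in 22 of the 24, against 69.5% of measured genes and 35.7% of all windows. An exact pair of AGGTCA sites with 4 bases between them, the form bound by LXR receptors, was found in 0 of the 24. It was found in 0 of the 9638 measured genes and in 0.0152% of all windows, so its absence does not set these genes apart. These matches describe letters in a short window and say nothing of binding.

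Of the 5 regulators of the pathway 2 fell (40.0%, against 24.6% of all genes) and 0 rose, with a median of -0.33. Srebf1, which encodes SREBP-1, the form that leans to fatty acid synthesis, had 146, 164 and 141 kb in con1 to con3 and 111, 105.1 and 116 kb in mut1 to mut3. All mutant values lay below the control values, and Srebf1 fell from 150 ± 12 to 111 ± 5.33 kb (-0.44, SE 0.09, adjusted p = 0.00198). Srebf2, which encodes SREBP-2, the form that leans to cholesterol synthesis, had 193, 208 and 206 kb in control and 191, 182 and 173 kb in mutant. The groups lie next to each other without overlapping, and the difference did not pass (-0.15, SE 0.08, adjusted p = 0.145). Scap, the escort that carries SREBPs to the Golgi, had 90.4 ± 1.07 kb in control and 88.8 ± 1.42 kb in mutant, with overlapping groups (-0.03, SE 0.08, adjusted p = 0.820).

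The Insig proteins hold Scap back, and Insig1 is itself a target of SREBPs. Insig1 had 64.3, 60.3 and 36.6 kb in con1 to con3 and 28.3, 32.9 and 30.3 kb in mut1 to mut3. The control libraries were spread, with con3 close to the mutant values, and Insig1 fell from 53.7 ± 14.9 to 30.5 ± 2.31 kb (-0.78, SE 0.18, adjusted p = 0.00487). With the authors' own p-values, adjusted, Insig1 did not pass (0.115), over a range of 0.000108 to 0.115 among the alternatives. Insig2 had 24.3, 24.9 and 26.4 kb in control and 17.02, 21.6 and 22.0 kb in mutant, below control in each library, and did not pass (-0.33, SE 0.14, adjusted p = 0.0689).

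Of the 8 enzymes of the mevalonate and isoprenoid arm 5 fell (62.5%, against 24.6% of all genes) and 3 did not pass. Hmgcs1 lost the most coverage of them. Hmgcs1 (chromosome 13, 119690379 to 119708260, plus strand, mm10), whose cytosolic enzyme joins acetyl-CoA to acetoacetyl-CoA, had 299, 323 and 326 kb in con1 to con3 and 122, 153 and 130 kb in mut1 to mut3. The groups were far apart, and Hmgcs1 fell from 316 ± 14.8 to 135 ± 16.1 kb (-1.23, SE 0.10, adjusted p = 2.88e-06). Acat2, the thiolase that makes acetoacetyl-CoA, fell from 79.2 ± 7.39 to 59.5 ± 8.08 kb (-0.42, adjusted p = 0.0125). The call of Acat2 was lost without con1 (0.0543) and with the authors' p-values (0.0843), over a range of 0.00376 to 0.0843. Of its longest annotated transcript 45.9% is shared with Acat3 in runs of 50 bases, so reads may be split between both.

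The kinases that follow did not pass the test. Mvk, which phosphorylates mevalonate, had 38.3, 35.8 and 34.1 kb in control and 38.4, 35.3 and 34.0 kb in mutant (-0.01, SE 0.11, adjusted p = 0.957). Pmvk, the next kinase, had 13.6, 21.3 and 22.7 kb in control and 18.4, 19.7 and 20.7 kb in mutant (0.06, SE 0.18, adjusted p = 0.805), with con1 below all other libraries. Both genes had overlapping groups. Mvd, the decarboxylase that makes isopentenyl diphosphate, fell from 23.5 ± 0.229 to 16.6 ± 1.71 kb (-0.51, SE 0.13, adjusted p = 0.00794).

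The enzymes that turn isopentenyl diphosphate into farnesyl diphosphate both fell. Idi1 (chromosome 13, 8885501 to 8892451, plus strand), the isomerase, had 32.4, 32.6 and 25.2 kb in con1 to con3 and 9.91, 15.5 and 10.3 kb in mut1 to mut3. Even the highest mutant library, mut2, lay below the lowest control library, con3, and Idi1 fell from 30.1 ± 4.198 to 11.9 ± 3.15 kb (-1.36, SE 0.19, adjusted p = 0.000157). Fdps (chromosome 3, 89093588 to 89101959, minus strand), the farnesyl diphosphate synthase, had 20.8, 20.5 and 16.9 kb in control and 6.65, 8.14 and 8.37 kb in mutant. Its groups did not overlap either, and it fell from 19.4 ± 2.22 to 7.72 ± 0.934 kb (-1.33, SE 0.17, adjusted p = 8.28e-05). Ggps1, which sends farnesyl diphosphate to geranylgeranyl groups for protein anchoring and so lies on a side branch, had 35.3 ± 3.07 and 30.05 ± 1.79 kb and did not pass (-0.23, SE 0.11, adjusted p = 0.118). Of the longest Idi1 transcript 21.3% is shared with Gm13502, so reads may be split between both. Of the Fdps exon bases 26.7% overlap Gm43738, a protein-coding gene on the same strand, so reads there cannot be assigned to either.

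From squalene on, all 10 measured enzymes fell (100%, against 24.6% of all genes), with a median of -0.84 against -0.03 over all genes. Hsd17b7, Tm7sf2, Sc5d and Ebp among them lost their calls under some alternatives. Tm7sf2 has a row only through its control mean. Fdft1, the squalene synthase, had 32.3, 32.0 and 26.1 kb in con1 to con3 and 14.9, 15.1 and 17.49 kb in mut1 to mut3, and fell by 0.93 on the log2 scale (SE 0.14, adjusted p = 0.000250). Of the Fdft1 exon bases 18.3% overlap Ctsb on the opposite strand, and the use of strand is not given in the sources used here; Ctsb rose (0.35). Sqle (chromosome 15, 59315077 to 59331192, plus strand), the squalene epoxidase and a rate-limiting step, had 117, 117 and 113 kb in control and 52.4, 62.5 and 54.8 kb in mutant. Its groups did not overlap, and Sqle fell from 116 ± 2.39 to 56.5 ± 5.26 kb (-1.04, SE 0.09, adjusted p = 8.17e-06). Lss, which closes squalene epoxide to lanosterol, fell from 29.4 ± 2.37 to 16.8 ± 0.918 kb (-0.81, adjusted p = 0.000320).

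Cyp51, the demethylase that acts on lanosterol, fell to 0.382 of control. Cyp51 (chromosome 5, 4081145 to 4104746, minus strand) had 113, 111 and 110 kb in con1 to con3 and 30.4, 61.9 and 34.9 kb in mut1 to mut3. The control values were close to each other, while mut2 lay well above mut1 and mut3. The mean fell from 111 ± 1.63 to 42.4 ± 17.03 kb (-1.46, SE 0.20, adjusted p = 0.000167), and the change ranged from -1.77 without mut2 to -1.26 without mut1. Sc4mol, an older symbol of Msmo1, the listed oxidase with no row of its own, had 68.6, 70.4 and 69.9 kb in control and 30.4, 52.3 and 38.0 kb in mutant, again highest in mut2 among the mutant libraries. It fell from 69.6 ± 0.911 to 40.2 ± 11.2 kb (-0.83, adjusted p = 0.00156) and is not counted among the 30.

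**Figure D2:**
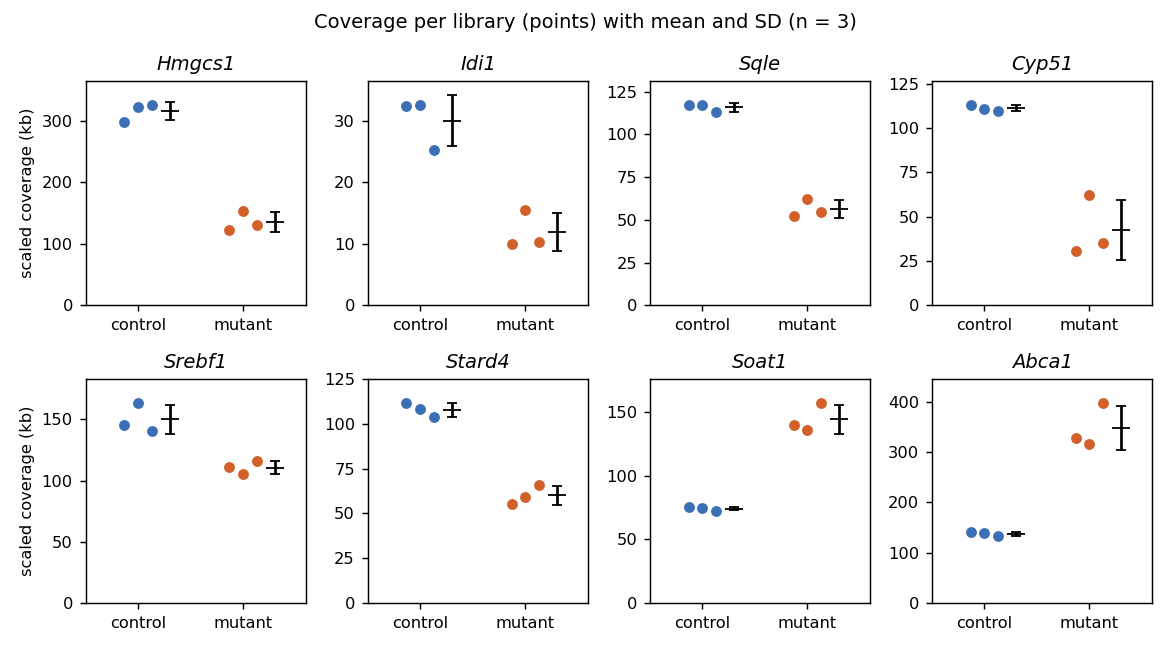
Scaled coverage in kb of 8 genes, with a point for each library and the mean and SD (n = 3) beside the points, on axes that start at 0. Hmgcs1, Idi1, Sqle, Cyp51, Srebf1 and Stard4 are lower in every mutant library than in every control library, and Soat1 and Abca1 are higher.

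The remaining sterol enzymes fell by 0.53 to 0.87 on the log2 scale. Nsdhl, which removes methyl groups from the sterol ring, fell from 45.5 ± 4.28 to 24.9 ± 2.21 kb (-0.87, adjusted p = 0.000150). Dhcr7, the reductase of the last step, had 50.4, 60.6 and 58.9 kb in con1 to con3 and 28.2, 35.6 and 30.8 kb in mut1 to mut3, without overlap (-0.85, adjusted p = 0.000196). Hsd17b7, which acts with Nsdhl, was spread in both groups, at 55.6, 43.3 and 39.2 kb and at 30.2, 29.0 and 19.4 kb, and fell by 0.83 (adjusted p = 0.00311; 0.0751 with the authors' p-values). These enzymes kept separate groups in every case.

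Tm7sf2, Sc5d and Ebp, a reductase, a desaturase and an isomerase of the sterol ring, lost their calls under some alternatives. Tm7sf2 had the lowest coverage of the list, 5.67 ± 0.435 and 3.24 ± 0.515 kb, or 3376 to 6087 bases per library before scaling (-0.82, SE 0.26, adjusted p = 0.0233). Its mutant mean lay below the 3402 units that the higher group mean had to pass. Tm7sf2 thus has a row only through the control group, and that filter favours a fall. For Tm7sf2 the threshold was missed without con1 (0.0894), con2 (0.0620) or mut2 (0.0617). Sc5d went from 21.3 ± 2.55 to 14.4 ± 2.86 kb (-0.57, adjusted p = 0.0182), a call lost without con2 (0.0570), con3 (0.0703) or mut1 (0.0555) and with the authors' p-values (0.0855). Ebp went from 13.3 ± 2.27 to 9.13 ± 0.217 kb (-0.53, adjusted p = 0.0266), a call lost without con2 (0.132), mut2 (0.0513) or mut3 (0.0619) and with the authors' p-values (0.0826). The exons of Tm7sf2 overlap those of Vps51 over 12.1% of their bases on the same strand.

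Summed over the 18 enzymes, coverage was 1024, 1047 and 1031 kb in con1 to con3 and 514, 622 and 536 kb in mut1 to mut3. The mutant sum was 53.9% of the control sum. Within the mutant group mut2 was the highest library for 9 of the 18 enzymes and mut1 the lowest for 12. The control libraries shared the lowest place more evenly, with con1 and con3 lowest for 8 each and con2 for 2.

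Genes of sterol export and storage moved the other way. Abca1 (chromosome 4, 53030787 to 53159895, minus strand), the transporter that hands cholesterol to lipid-poor apolipoprotein, had 140, 139 and 133 kb in con1 to con3 and 328, 317 and 398 kb in mut1 to mut3. The lowest mutant library had over 2 times the coverage of the highest control library, and Abca1 rose from 137 ± 4.01 to 348 ± 44.1 kb (1.33, SE 0.10, adjusted p = 1.79e-06). Abcg1, which loads cholesterol onto high-density lipoprotein, had 25.1, 25.8 and 24.7 kb in control and 34.8, 33.0 and 47.2 kb in mutant. It rose by less (0.59, SE 0.14, adjusted p = 0.00540), with mut3 above the others as for Abca1, and did not pass with the authors' p-values (0.0951).

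Soat1 (chromosome 1, 156424525 to 156474331, minus strand), which esterifies cholesterol for storage, had 75.6, 74.5 and 72.8 kb in con1 to con3 and 140, 136 and 158 kb in mut1 to mut3. Both groups were tight and far apart, and Soat1 rose from 74.3 ± 1.42 to 144 ± 11.5 kb (0.96, SE 0.09, adjusted p = 8.97e-06). Scarb1, the receptor for high-density lipoprotein, had 23.01, 29.4 and 24.7 kb in control and 43.3, 44.1 and 39.3 kb in mutant, and rose by 0.72 (SE 0.12, adjusted p = 0.000635). Stard4, a cytosolic sterol carrier, was the exception of the group. It had 112, 108 and 104 kb in control and 55.6, 59.0 and 66.1 kb in mutant and fell by 0.85 (SE 0.09, adjusted p = 3.32e-05), a size within the range of the sterol enzymes.

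Npc1 and Npc2, whose proteins together release cholesterol from lysosomes, rose little. Npc1 went from 53.3 ± 5.12 to 66.1 ± 3.38 kb (0.31, SE 0.10, adjusted p = 0.0248), a call lost without con1 (0.113), con2 (0.0795) or mut3 (0.0855) and with the authors' p-values (0.0623). Npc2 went from 111 ± 16.1 to 141 ± 16.0 kb (0.35, SE 0.12, adjusted p = 0.0304), and its groups overlap, since con3 (130 kb) lies above mut2 (126 kb). The call of Npc2 was lost without con1 (0.121), con2 (0.116) or mut3 (0.123), without a variance trend (0.0864) and with the authors' p-values (0.159).

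Levels were compared between genes per base of all annotated exons, and the order depends in part on that length. Hmgcs1 stood at the top in control, at 68.8 ± 3.21 units of scaled coverage per base, and at 29.4 ± 3.51 in mutant. Abca1 went from 13.3 ± 0.387 to 33.6 ± 4.26 per base, a mutant level within the spread of that of Hmgcs1. By this length Abca1 moved from place 12 of 30 to place 1, and by the longest transcript from place 15 to place 4, behind Npc2, Hmgcs1 and Srebf2. Soat1 moved from place 19 to 7, or from 21 to 8 by the longest transcript. Cyp51 went from place 5 to 14 (25.1 ± 0.369 to 9.60 ± 3.86 per base), or from 6 to 18 by the longest transcript, and Idi1 from 18 to 26 by either length. Tm7sf2 (1.29 ± 0.0988 per base in control) and Lss (2.73 ± 0.220) held the last places in both groups by either length. In control, Acat2, Srebf2, Srebf1 and Cyp51 followed Hmgcs1, at 31.1 ± 2.91, 28.1 ± 1.17, 26.6 ± 2.13 and 25.1 ± 0.369 per base, and neighbours among these 4 lay within their spread; by the longest transcript Srebf2 stood above Acat2 and Npc2 above Cyp51.

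**Figure D3:**
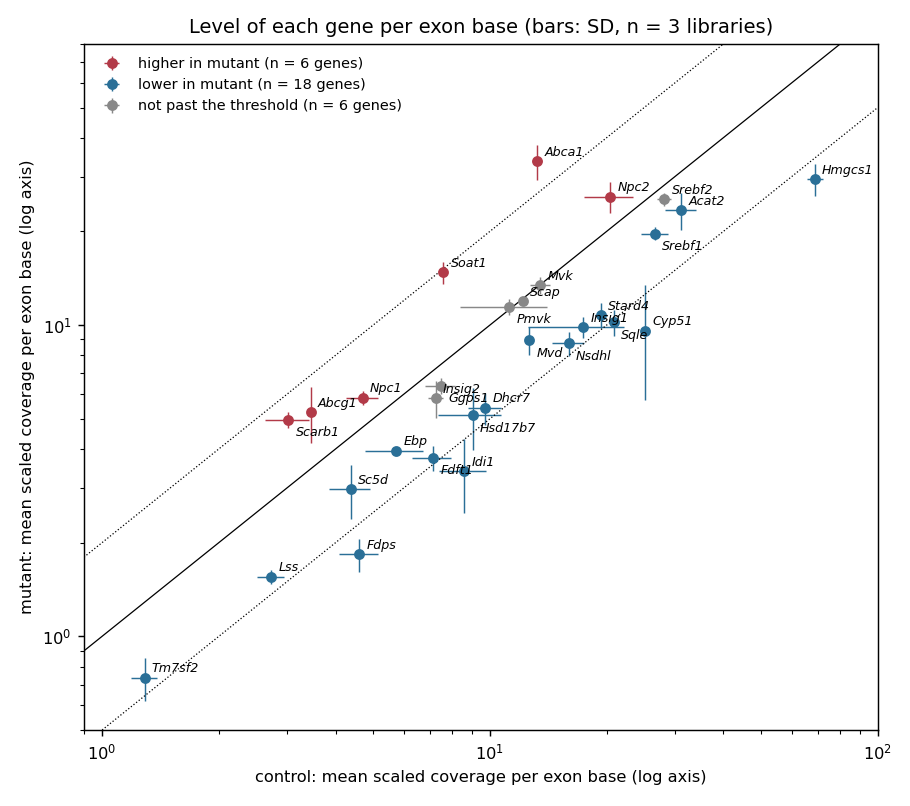
Mean scaled coverage per exon base of the 30 genes in control and mutant kidneys, on log axes, with SD bars (n = 3), the line of equality and dotted lines at 2 times and 0.5 times. Genes that fell lie below the line, with Hmgcs1, Cyp51, Idi1, Fdps and Sqle past the lower dotted line, and Abca1 past the upper one.

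Other lists of lipid and isoprenoid genes were read against all genes, of which 24.6% fell and 21.5% rose. Of 16 listed genes of fatty acid synthesis, which SREBP-1 governs, 8 fell (50%) and 1 rose, with a median of -0.24 against -0.03 over all genes. Acss2, which makes acetyl-CoA from acetate, fell from 48.05 ± 6.61 to 20.1 ± 2.90 kb (-1.26), Me1, a source of NADPH, fell from 7.18 ± 1.14 to 3.73 ± 0.736 kb (-0.95), and the elongase gene Elovl5 rose from 54.7 ± 4.58 to 104 ± 14.3 kb (0.93). Without con1 or con2 the number that fell was 5, and 2 rose under quantile scaling. Of 12 genes that use isoprenoids 4 fell (33.3%) and 1 rose, with a median of -0.15, and the 5 genes past the threshold are a share close to the 46.1% of all genes. They include Pdss1 (13.9 ± 0.621 to 5.74 ± 0.247 kb, -1.28) and Coq2 (38.8 ± 5.97 to 23.5 ± 1.78 kb, -0.71), of ubiquinone synthesis, and Nus1 (164 ± 8.41 to 96.5 ± 4.78 kb, -0.76), of dolichol synthesis. Without con1 the number that rose was 0.

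The machinery that processes SREBPs and senses sterols changed little in number. Of its 13 genes 2 rose (15.4%, against 21.5% of all genes) and 1 fell (7.69%, against 24.6%), with a median of 0.00. Mbtps1, the protease that makes the first cut in SREBPs, rose from 306 ± 3.82 to 390 ± 7.44 kb (0.35), the ubiquitin ligase gene Rnf145 rose from 163 ± 9.47 to 210 ± 6.03 kb (0.37), and Erlin1, of a sterol-binding complex of the endoplasmic reticulum, fell from 66.9 ± 3.22 to 50.2 ± 5.49 kb (-0.42). Of 22 sterol carriers at membranes 8 fell (36.4%, against 24.6% of all genes) and 3 rose (13.6%, against 21.5%), with a median of -0.12. Tmem97, which binds the Npc1 protein, fell from 32.4 ± 2.43 to 16.4 ± 2.63 kb (-0.99), Gramd1b, which moves cholesterol from the plasma membrane, fell from 38.0 ± 3.35 to 22.9 ± 3.26 kb (-0.74), and Cav1, which encodes caveolin, rose from 101 ± 1.89 to 143 ± 19.4 kb (0.49; adjusted p = 0.0592 with the authors' p-values). The number of carriers that rose was 5 under quantile scaling and 1 with the authors' p-values.

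Genes of lipoprotein uptake and oxysterols were mixed. Of 13 genes of lipoprotein receptors and lysosomal lipid 4 rose (30.8%) and 3 fell (23.1%), with a median of 0.06. Over all genes 21.5% rose and 24.6% fell. Lrp2, the megalin gene of the proximal tubule, fell from 2302 ± 312 to 468 ± 29.7 kb (-2.29) while Lrp1, a broadly expressed receptor of the same family, rose from 399 ± 12.7 to 849 ± 16.7 kb (1.09). Apob, which encodes the protein of low-density lipoprotein, rose from 1.56 ± 0.746 to 4.85 ± 1.01 kb (1.74), at a level near the floor of the table. Its control mean lay below the 3402 units that the higher group mean had to pass. Apob thus has a row only through the mutant group, and that filter favours a rise. Of 8 measured genes of LXR, oxysterols and esters 3 rose and 2 fell (median 0.02). Those that rose include Cyp27a1 (5.35 ± 0.968 to 13.4 ± 3.51 kb, 1.31) and Cyp7b1 (11.01 ± 1.08 to 21.1 ± 5.09 kb, 0.91), which encode sterol hydroxylases. The other was the phospholipid transfer gene Pltp (25.4 ± 4.02 to 47.4 ± 3.07 kb, 0.91). Cyp27a1 (0.0556) and Cyp7b1 (0.0731) did not pass with the authors' p-values, and 5 listed genes, among them Nr1h3 and Soat2, were not analysed here.

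Many cell type markers also differed between the groups, and in whole kidneys fewer cells of a type and less RNA per cell cannot be told apart. Over all genes 24.6% fell and 21.5% rose. All 12 markers of the proximal tubule fell (median -2.06), with a summed coverage of 3617 to 4567 kb per control library and 888 to 1085 kb per mutant library. Miox, Slc5a12 and Slc13a3 among them had mutant means of 2.03, 2.65 and 3.29 kb. These means lie below the 3402 units that the higher group mean had to pass. Such genes have rows only through the control group, and that filter favours a fall. All 8 podocyte markers fell (summed 1158 to 1278 kb, then 452 to 531 kb), 4 of 5 measured markers of loop and distal tubule fell (491 to 579 kb, then 249 to 287 kb) and 9 of 12 genes of dividing cells fell (1709 to 2095 kb, then 1311 to 1862 kb, ranges that overlap; 5 fell with the authors' p-values). Of 10 measured macrophage genes 9 rose (131 to 151 kb, then 258 to 299 kb), led by Emr1, an older symbol of Adgre1 (1.48), Cx3cr1 (1.37) and Csf1r (1.204), and of 11 stromal genes 10 rose (3697 to 3832 kb, then 6204 to 7953 kb). Of 6 measured erythroid genes 4 rose (122 to 129 kb, then 196 to 229 kb), and 1 or 2 did without con2, con3, mut2 or mut3. The part of these cell types in the changes of the cholesterol genes was not tested.

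The remaining marker lists moved both ways or were measured only in part. They were read against all genes, of which 24.6% fell and 21.5% rose. Nephron progenitor markers went 6 lower and 2 higher of 8 (518 to 581 kb, then 297 to 402 kb), collecting duct markers 3 lower and 2 higher of 7 (274 to 325 kb, then 241 to 296 kb) and endothelial markers 3 higher and 2 lower of 8 (1145 to 1230 kb, then 1316 to 1332 kb). Collecting duct genes that rose numbered 1 without con3, mut1 or mut3 and 0 with the authors' p-values. Endothelial genes went 1 higher and 1 lower without con1 or con2, and 1 rose without a variance trend. Of 9 markers of the adrenal cortex, a gland that borders the kidney and makes steroids from cholesterol, 7 were not analysed here, among them Star and Cyp11a1. Of the other two, Fdx1 fell from 16.3 ± 3.26 to 9.47 ± 1.22 kb (-0.77, adjusted p = 0.00547) and Akr1b7 from 25.6 ± 5.22 to 18.4 ± 3.04 kb (-0.47, adjusted p = 0.0417), a call lost without con2 (0.0594), con3 (0.177), mut1 (0.0660) or mut2 (0.132), with trimmed-mean (0.0545) or quantile (0.0731) scaling and without a variance trend (0.0759). With the authors' p-values neither passed (0.0713 for Fdx1 and 0.184 for Akr1b7). Of 10 markers of liver and fat 4 were measured, of which 3 fell and 1 rose (274 to 380 kb, then 153 to 201 kb). Ttr, among those that fell, has a row only through its control mean. These summed values are given as measured beside the cholesterol genes, and their part was not tested.

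**Figure D4:**
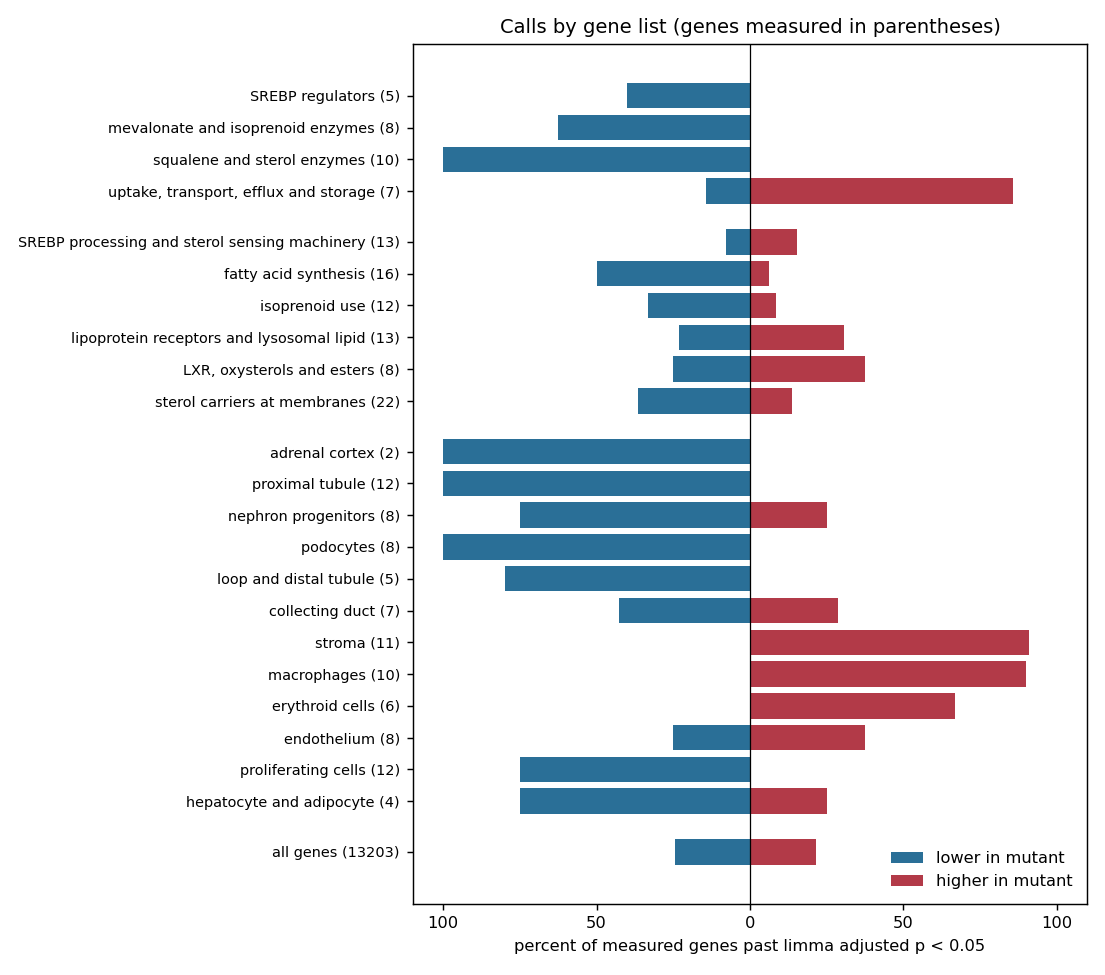
Percent of the measured genes of each list that were lower (left) or higher (right) in mutant kidneys at a limma adjusted p under 0.05, for the 4 roles, 6 related pathways, 12 cell type lists and all genes. Squalene and sterol enzymes reach 100% on the lower side, as do proximal tubule and podocyte markers, and uptake, transport, export and storage genes lie mostly on the higher side, as do stromal and macrophage markers. Tm7sf2, Miox, Slc5a12 and Slc13a3, counted as lower, have rows only through their control means.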

How the data were processed

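Total RNA of 6 samples of E17.5 kidney was depleted of ribosomal RNA and made into Ion Total RNA-seq libraries, per the labels' protocols. Per the submitters' processing notes, bedtools and the build mm10 were used; no source used here names the aligner, the gene annotation or the use of strand. In the deposited table the authors give a coverage signal per gene and library, scaled to nearly equal totals (976.3 to 976.6 Mb) and not divided by length, for genes with a higher group mean above 3402 units, so genes below are not analysed here. The lowest values were whole multiples of a library step (tolerance 0.02), which gave the unscaled totals. The deposited ratio is mutant over control mean; the deposited p-value and q-value come without a stated method. Columns name the group only, so animals and columns were not matched and no pairs were made. Sample titles carry different numbers but the labels do not say that these are separate animals. By Y-linked and Xist coverage con3 and mut1 came from other animals than the rest of their groups. The p-values measure the spread between samples, which may be technical among the rest.

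The log2 of each value plus a pseudocount of 1 went into limma 3.58.1 (R 4.3.3; empirical Bayes, mean-variance trend, two-sided) for all 13203 genes, with Benjamini-Hochberg adjustment over all of them and a threshold of 0.05. The fit was tested on simulated data in which far fewer genes changed than passed the threshold here. That test does not show how the fit behaves on these data. The members and lists were chosen with earlier results of these data known. All members were described; of each other list at most 3 genes past the threshold with the largest change were named, and all measured adrenal markers. Exon lengths, overlaps and transcripts came from GENCODE M21, promoters from RefSeq GRCm38.p6. Levels between genes were compared per base of the union of exons. Alternatives were trimmed-mean and quantile scaling, a pseudocount of 1000, genes with mean coverage above 10000 units, no variance trend, the deposited p-values after adjustment, each library left out and, added after seeing the data, sex in the model.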

Additional observations from a re-analysis of the deposited data

How the results depend on the processing

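Under the 13 alternatives no member past the threshold changed direction, and 21 of the 30 members kept their side of the threshold under each of them. The other 9 (Insig1, Acat2, Tm7sf2, Hsd17b7, Ebp, Sc5d, Npc1, Npc2 and Abcg1) lost their call under at least 1 alternative, with the values given in the report, and none gained one. The number of members that fell was 13 to 18 and of enzymes 11 to 15, both lowest with the authors' p-values after adjustment. The number that rose was 3 with those p-values, in place of 6; the cause was not tested. Without 1 library the number that fell was 15 to 17 and the number that rose 4 to 6. With coverage above 10000 units Tm7sf2 was not tested. Sex in the model left the counts at 18 and 6. The median of all genes moved from -0.03 to 0.01 at most, under quantile scaling. With the longest transcript as length 9 of the 10 highest members per base were shared in control and 10 in mutant, but Npc2 took the top place from Abca1 in mutant, and a fixed C in the sterol element core left its count at 1. No paired analysis was possible because the columns carry no animal number. With 3 libraries per group small differences such as those of Srebf2, Insig2 and Ggps1 are not settled, and the number of reads behind each value is unknown.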
